A study of Homo sapiens with 20 samples.

Results

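The contrast described here asks which transcripts crosslinked to IGF2BP3 respond differently to oxidative stress and to late endoplasmic reticulum (ER) stress. It was built from 12 of the 20 libraries of the series, the anti-IGF2BP3 libraries of 4 groups with 3 libraries each. The cells came from HCT116, an established line of human colorectal carcinoma, in a derivative carrying Tet-OsTIR1, an inducible plant F-box protein used for protein degradation, which is present in controls and stressed cells alike. All cells received 100 µM 4-thiouridine for 15 h. One group was treated with 250 µM arsenite for 2 h (the sample titles write arsenite and the protocol writes sodium arsenate), and its control received PBS diluted 1:1000 for 2 h. Another group was treated with tunicamycin (TM) at 5 µg/mL for 4 h, and its control received DMSO diluted 1:1000 for 4 h. For each gene the arsenite change against PBS, minus the TM 4 h change against DMSO, was tested as 1 difference. A positive value means that the transcript gained more, or lost less, under arsenite than under tunicamycin, and a negative value means the opposite.

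IGF2BP3 is a cytoplasmic RNA-binding protein of the oncofetal IGF2BP family, whose members bind mRNAs and influence their stability, localisation and translation. In PAR-CLIP, 4-thiouridine in the RNA is crosslinked by ultraviolet light to a bound protein, and the crosslinked uridines are read as T-to-C conversions. Arsenite damages thiols and unfolds cytosolic proteins, which activates the heat shock response, the antioxidant response and stress kinases that switch on immediate early genes. Tunicamycin blocks N-linked glycosylation in the ER and activates the unfolded protein response, through the sensors PERK, IRE1 and ATF6. Both stresses lead to phosphorylation of eIF2α and so to the integrated stress response. A PAR-CLIP count reflects how much of a transcript is present as well as how much of it is bound, and in these libraries the 2 cannot be told apart.

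Gene counts and cluster reads were used as readouts. The deposited gene table has 19962 rows of read counts under Ensembl identifiers, and no table used here pairs these identifiers with symbols. Genes were therefore named through the deposited cluster lists, in which each cluster is a stretch of overlapping crosslinked reads with genome coordinates: cluster reads were summed over each gene of the RefSeq table (build GRCh38.p14), on the gene's strand. Every value given below for a named gene is such a sum, scaled to CPM (edgeR's cpm, reads relative to library size) over the reads in clusters of tested genes, with TMM factors. The lists hold only called clusters, of at least 2 reads with at least 2 conversion locations, so a value of 0 means that no cluster was listed. The shallowest library, PBS replicate 2, had 130478 gene counts, and the deepest, the third of TM 4 h, had 1568406. PBS replicate 2 also had 42699 cluster reads, against 204999 or more in each of the other 11 libraries, and 808 of the 1917 named genes tested had no cluster there. Counts of calls are therefore also given without this library. PBS and arsenite libraries carry one library set name, S143. In the tunicamycin arm replicates 1 and 2 of DMSO and TM 4 h carry S142, and replicate 3 of both carries S141. Each arm is therefore comparable only through its own control. The arms also differ in exposure time, 2 h against 4 h. Kind of stress, exposure time and library set cannot be told apart in this contrast. Of 10 epithelial markers, 7 had cluster reads, with sums between 86.9 and 296 CPM in the 12 libraries. Markers of fibroblasts, endothelium and hepatocytes had no cluster in any of them, and of 4 leukocyte markers 1 had reads, in 1 arsenite library. Nothing in the labels says that replicates were separate cultures, so p-values measure the spread between these libraries, which may be technical.

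The stretch of a gene with the most cluster reads shows what was read as bound RNA. The 30-base windows below come from genes whose reads rose more under arsenite, on build hg38 and in the sense of the transcript. Each lies around the listed mode position of the cluster with the most reads in the strongest region. The strongest region of a gene is the one with the most reads. Windows were shifted where needed to stay inside the cluster. The EGR1 window holds no T, the base whose conversion marks a crosslink. Capitals mark CAT, a core of the CA-rich motifs described for IGF2BP proteins. They lie inside the span of the named gene, and exons and untranslated regions were not used here.
FOS (chr14:75281443-75281472, plus strand): gcagccggcacccacaagtgccactgcccg
FOSB (chr19:45474425-45474454, plus strand): tatattttttaatatcggggggtggaccac
EGR1 (chr5:138467425-138467454, plus strand): aaccggcccagcaagacgcccccccacgaa
EGR2 (chr10:62813530-62813559, minus strand): aCATccgaatccacactgggCATaagccct
DNAJB1 (chr19:14515904-14515933, minus strand): gagctccccaaggactgaccagggaccttt
BAG3 (chr10:119677594-119677623, plus strand): ctctggactggaggggtagatggggagtca
ZFP36 (chr19:39407827-39407856, plus strand): ccctggagcctgagcccctccgactccagc
The FOS window belonged to a region that held 86.6% of all cluster reads of FOS, and that of DNAJB1 to a region with 91.8% of its reads. In FOSB and EGR2 the strongest region held 28.3% and 36.7%, so that reads were spread over more of the transcript.

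The same windows are given for genes whose reads rose more, or fell less, under tunicamycin. RPL39 and OOEP are printed together because their windows have identical letters. The OOEP region holds a near-identical copy of the ribosomal protein sequence, so the reads of these 2 genes cannot be assigned with certainty.
HSPA5 (chr9:125236545-125236574, minus strand): ctgtaatattgtaaatactggactcaggaa
TRIB3 (chr20:396788-396817, plus strand): cttccagaagggagaaaggcagaagcctgt
P4HB (chr17:81843946-81843975, minus strand): cgggggctgcacacccagcagcagcgcacg
ATF4 (chr22:39522336-39522365, plus strand): cctggagagaagatggtagcagcaaaagta
ZFAS1 (chr20:49289047-49289076, plus strand): actggcgatggaatatgagaggagccctct
RPL39 (chrX:119786606-119786635, minus strand): gatCATgttacCATatcaagctgaaaatgt
OOEP (chr6:73373030-73373059, minus strand): gatCATgttacCATatcaagctgaaaatgt
All 7 regions were listed in each of the 12 libraries. The HSPA5 region alone held 82.1% of the reads of that gene, the P4HB region 96.0%, and the TRIB3 region 97.5%.

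The difference was first tested over all genes of the count table with edgeR's quasi-likelihood test and Benjamini-Hochberg adjustment over the 7796 genes that passed the filter on low counts. It was called at an adjusted p under 0.05 for 1427 genes, 18.3% of those tested, of which 668 were more positive under arsenite (8.57%) and 759 more negative (9.74%). The libraries separated fully, with every arsenite minus PBS gap above every TM 4 h minus DMSO gap, for 8.5% of the genes, and with every gap below for 8.45%. In the arms themselves, 30.4% of the genes were called for arsenite against PBS and 5.96% for TM 4 h against DMSO, the latter with 3.18% higher and 2.78% lower. Of the 1427 genes, 1118 also passed the test for arsenite against PBS and not for TM 4 h against DMSO, with 534 of these more positive and 584 more negative. A further 92 passed in the tunicamycin arm and not the arsenite arm, 74 passed in both arms in opposite directions, 37 passed in both arms in the same direction with a different size, and 106 passed in neither arm alone. The arsenite change was the larger of the 2 in 1289 of the 1427, with a median size of 0.79 on the log2 scale against 0.17 for tunicamycin. Of the 37 genes called in both arms in 1 direction, 20 rose in both, 17 fell in both, and in 33 the arsenite change was the larger. Large differences were mostly positive: 54 called genes differed by at least 4-fold upwards and 15 downwards. The count fell to 854 with DESeq2's Wald test, and all 854 were among the 1427.

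**Figure D1:**
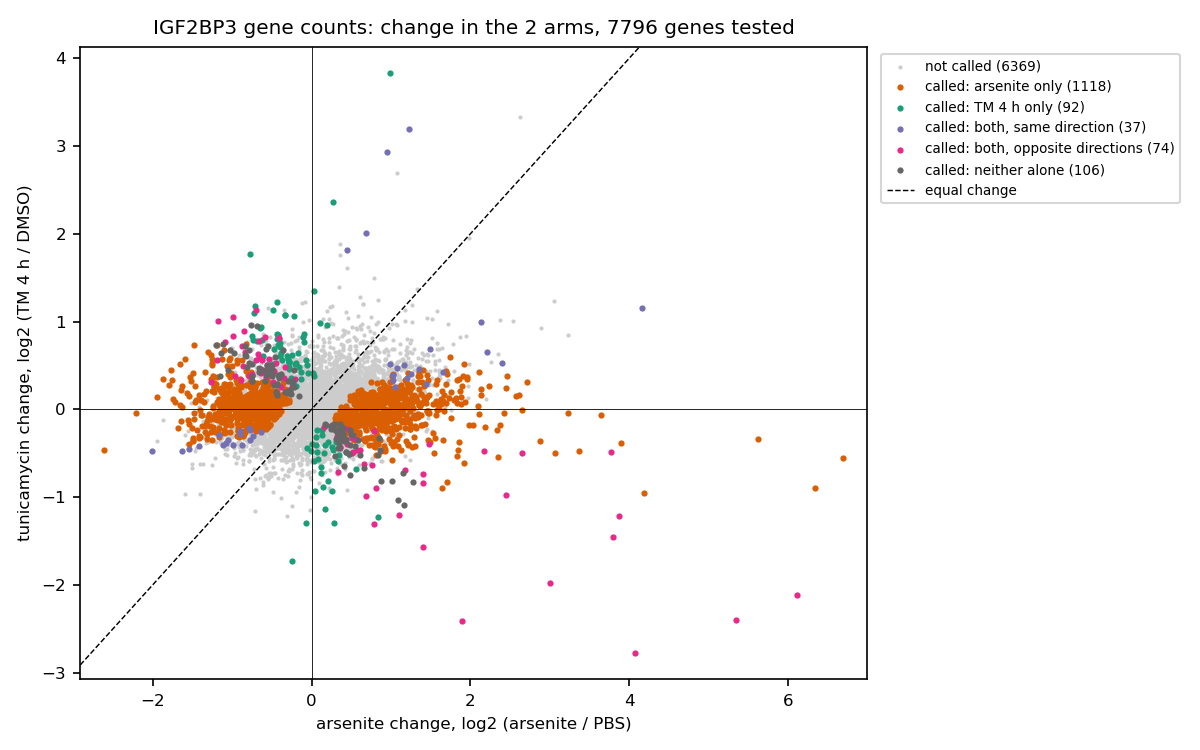
Each point is 1 of 7796 genes of the count table, with the arsenite change (log2, arsenite over PBS) on the horizontal axis and the tunicamycin change (log2, TM 4 h over DMSO) on the vertical axis. Colours give the arm or arms in which a gene with a called difference also passed the test, and the dashed line marks equal change. The 1118 genes called in the arsenite arm alone spread along the horizontal axis, and the 74 genes with opposite changes lie to the lower right and upper left.

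Identifiers are given from the called genes whose libraries separated fully and whose counts averaged 50 or more. The 2 with the most positive difference among these were ENSG00000179388 and ENSG00000125740. ENSG00000179388 stood at 17.0, 23.7 and 12.7 CPM in the PBS libraries and at 1122, 1434 and 885 CPM in the arsenite libraries. In the other arm it stood at 27.4, 34.2 and 90.2 CPM with DMSO and 17.99, 17.4 and 10.3 CPM with TM 4 h. It thus rose in one arm (log2 6.12, SE 0.25) and fell in the other (-2.12, SE 0.32), and DMSO replicate 3 was the highest of its control libraries. ENSG00000125740 behaved alike, with a log2 difference of 7.75 (SE 0.42). The most negative difference among these was -2.09, for both ENSG00000198918 and ENSG00000044574. The former fell under arsenite, from 219, 276 and 257 CPM to 80.5, 78.4 and 64.0 CPM. The latter rose under tunicamycin, from 211, 192 and 232 CPM to 958, 1446 and 893 CPM, and differed by 0.27 on the log2 scale under arsenite. All 4 calls stayed under each of the 22 alternatives run for the gene table.

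Among named genes, 1917 had a mean of at least 50 cluster reads over the 12 libraries and were tested in the same way. The difference was called for 161 (8.4%), of which 111 were more positive under arsenite (5.79%) and 50 more negative (2.61%). Without PBS replicate 2 the count was 295 of 2044 genes tested, 182 more positive and 113 more negative, and 160 of the 161 genes were still called. The split between directions depended on the scaling. With library totals alone 110 genes were more positive and 118 more negative, and with DESeq2's size factors 146 and 40. The median difference over all tested genes was 0.14 on the log2 scale with TMM, 0.06 with library totals and 0.29 with DESeq2's size factors, and the values below are to be read against it. Of the 161 genes, 153 passed the test in the arsenite arm alone and 4 in the tunicamycin arm alone. In the fit of the 12 libraries 23.8% of the genes were called for arsenite against PBS (9.08% lower) and 0.522% for TM 4 h against DMSO (0.0522% lower). The libraries separated fully towards the positive side for 12.3% of the genes and towards the negative side for 5.69%. PBS replicate 2 had no cluster in 57 of the 111 more positive genes and in 0 of the 50 more negative genes. For 9 of the 111, a whole group of libraries was at 0, and no fold change is given for those genes. Genes of the 25 lists described below made up 31 of the 111 and 21 of the 50. Gene lists are described by their counts and medians, without a test. In simulated cluster reads the test recovered 12% of genes changed 2-fold, so a gene that was not called may still differ.

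Immediate early transcription factors gave the largest differences. These genes are transcribed within minutes of a growth factor or stress signal. The arsenite arm was read at 2 h and the tunicamycin arm at 4 h, so time and stress cannot be told apart here. Of 11 AP-1 and ATF genes, 9 had clusters and 6 were tested, and 5 of the 6 were called, all more positive under arsenite. Members of this list passed the filter mainly through their reads in the arsenite libraries, so the count is a description. The same holds for the adjusted p-values of FOS and FOSB, which had no PBS cluster. FOS, the prototype partner in the AP-1 dimer, had no cluster in the 3 PBS libraries and stood at 4505, 4134 and 2933 CPM with arsenite. In the tunicamycin arm it stood at 0, 0 and 45.2 CPM with DMSO and 0, 11.8 and 11.5 CPM with TM 4 h. The arsenite libraries lay far above the 9 others. The adjusted p of 0.00088 in edgeR's test rests on PBS values of 0 and is a description. The calls of FOS, EGR2 and DUSP2 were lost without DMSO replicate 3 (adjusted p = 0.9997 for each), the DMSO library that held all DMSO reads of these genes. Without it no PBS or DMSO library listed them, so the difference could not be estimated and that p does not test it. FOSB, another FOS family partner, also had no PBS cluster, reached 2586, 2844 and 1356 CPM with arsenite, and was at 0 in all TM 4 h libraries against 26.0, 0 and 109 CPM with DMSO (adjusted p = 0.0016). The call of FOSB was lost with only the S142 libraries in the tunicamycin arm (adjusted p = 0.059 in edgeR's test). JUNB, a JUN family partner that restrains growth, rose by 5.21 on the log2 scale under arsenite (SE 1.02) and changed by -0.76 (SE 0.83) under tunicamycin. Of its PBS libraries only replicate 2 listed reads (175 CPM), without which the fitted difference was 11.997 in place of 5.97 and depends on the prior count. The call was lost under 5 of 21 alternatives. ATF3, a stress-induced repressor that both stresses can induce, stood at 583, 0 and 454 CPM with PBS and 3838, 3661 and 2453 CPM with arsenite. Its DMSO and TM 4 h means were 723 ± 209 and 786 ± 167 CPM (SD, n = 3), and the difference of changes was 2.86 (SE 0.58, adjusted p = 0.0079). FOSL1 had a difference of 1.93. JUN had clusters in the arsenite libraries and in no library of the other groups, so its difference could not be estimated and it was not called.

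EGR, NR4A, IER and KLF genes are described next, and they too include members that passed the filter mainly through the arsenite libraries. Of 24 members 21 had clusters and 11 were tested, and 10 of the 11 were called, all more positive under arsenite. The median difference was 3.07 over the 9 members with reads in each group, against 0.14 over all tested genes. EGR1, a zinc finger factor of the serum response, was chosen for description after its values were seen. It stood at 1101, 1901 and 1820 CPM with PBS and at 30962, 25124 and 19945 CPM with arsenite. With DMSO it stood at 2951, 1829 and 3273 CPM and with TM 4 h at 2068, 2499 and 1401 CPM, so the arsenite libraries stood apart and the tunicamycin arm overlapped its control. The difference was 4.43 (SE 0.46, adjusted p = 9.2e-05). NR4A1, an orphan nuclear receptor, averaged 2738 ± 543 CPM with arsenite and 25.7 ± 44.5 CPM with PBS (SD, n = 3), with a difference of 8.17 (SE 1.05). Only PBS replicate 1 listed NR4A1 among the PBS libraries, and without it the fitted difference was 15.0, a value that depends on the prior count, and the call stayed. It averaged 237 ± 255 CPM with DMSO, where replicate 3 had 532 CPM, and 74.95 ± 29.1 CPM with TM 4 h. NR4A2, its relative, had a difference of 4.96 (SE 0.75). EGR3 and EGR2 had no cluster in any PBS library and means of 2253 ± 736 and 814 ± 224 CPM with arsenite (SD, n = 3), against 25.7 and 3.57 CPM with DMSO. KLF6, KLF10 and IER2 were called with differences of 3.16, 3.07 and 2.49. BTG2, an antiproliferative gene of this list, was the member that was not called (0.58, adjusted p = 0.18).

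Some genes that limit signalling also differed. Of 22 genes of the DUSP, ZFP36, SPRY and SOCS families 18 had clusters and 10 were tested, and 4 were called, all more positive. Among the called genes DUSP2 and ZFP36 passed the filter mainly through their reads in the arsenite libraries, so the count and the adjusted p of ZFP36 are descriptions. ZFP36, which binds AU-rich elements and promotes mRNA decay, stood at 2325, 2037 and 1600 CPM with arsenite and at 27.5, 0 and 0 CPM with PBS. With DMSO it had 0, 63.9 and 115 CPM and with TM 4 h 49.4, 63.7 and 44.9 CPM, which overlap (difference 7.75, SE 0.93, adjusted p = 0.00034). Without PBS replicate 1, the only PBS library with reads, the fitted difference of ZFP36 was 13.2, which depends on the prior count, and the call stayed. DUSP5, a nuclear phosphatase of ERK, had a difference to which both arms contributed. Its mean went from 452 ± 63.2 to 1214 ± 254 CPM in the arsenite arm (log2 1.42, SE 0.29) and from 691 ± 286 to 295 ± 35.2 CPM in the tunicamycin arm (-1.26, SE 0.27, adjusted p = 0.060), with SD over n = 3. DUSP2 had no cluster with PBS or TM 4 h and a mean of 649.6 ± 49.4 CPM with arsenite (SD, n = 3). SPRY4, an inhibitor of receptor tyrosine kinase signalling, had a difference of 1.48 (SE 0.34). ZFP36L1 and ZFP36L2, relatives of ZFP36, had differences of 0.84 and -0.06 and were not called.

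Heat shock genes formed the next group. HSF1 is the transcription factor that induces cytosolic chaperones when proteins unfold. Of 27 members of its list 21 had clusters and 14 were tested, and 5 were more positive under arsenite, with none more negative. Among these, BAG3 passed the filter mainly through its reads in the arsenite libraries. Without PBS replicate 2 the count was 6, with HSP90AA1 added. The median difference was 1.47 over the 13 members with reads in each group. DNAJB1, an HSP40 cochaperone, stood at 303, 0 and 188 CPM with PBS and 6650, 5233 and 4521 CPM with arsenite. With DMSO it stood at 286, 305 and 296 CPM and with TM 4 h at 311, 345 and 292 CPM, so that tunicamycin libraries overlapped their control while arsenite libraries were far above theirs. The difference was 4.62 (SE 0.48, adjusted p = 9.2e-05), and 4.37 without PBS replicate 2. BAG3, a cochaperone of selective autophagy, had no cluster with PBS, 887, 949 and 838 CPM with arsenite, a mean of 50.5 ± 44.0 CPM with DMSO and 28.5 ± 16.6 CPM with TM 4 h (SD, n = 3). HSPH1, an HSP110 nucleotide exchange factor, and HSPA8, the constitutive HSC70, had differences of 2.41 and 1.64. The call of HSPH1 was lost under 6 of 22 alternatives. HSP90AB1 and the mitochondrial chaperonin HSPD1 had differences of -0.19 and -0.46 and were not called.

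Metal and antioxidant genes did not move as 1 block. SLC30A1, a zinc exporter induced by the metal sensor MTF1, was the called member among 3 tested genes of 8 in its list (2.15, SE 0.61, adjusted p = 0.042), and its call was lost under 15 of 22 alternatives. The metallothionein MT1X lay below the minimum and was not tested. It was listed with 29, 32 and 86 reads in the arsenite libraries, with 0 in all PBS libraries, and with at most 8 reads in any library of the other arm. HMOX1, the heme oxygenase that NRF2 induces, was not tested either. It had 9, 33 and 62 reads with arsenite, 0 with PBS, 0, 6 and 14 with DMSO and 0, 0 and 15 with TM 4 h. MT1X, HMOX1 and the other untested genes given here were chosen after their values were seen. Of 10 tested NRF2 targets, from 27 in the list with 23 holding clusters, 1 was called, and it was more negative. This was PRDX1, a peroxiredoxin, at 275, 351 and 265 CPM with PBS, 61.9, 116 and 190 CPM with arsenite, 136.5, 188.5 and 152 CPM with DMSO and 395, 257 and 329 CPM with TM 4 h. The arsenite change of PRDX1 was -1.15 (SE 0.40, adjusted p = 0.0495), just past the threshold, and the tunicamycin change was 1.014 (SE 0.36, adjusted p = 0.58). Its call was lost under 6 of 23 alternatives. TXNRD1, SRXN1, NQO1 and SQSTM1 had differences between -0.69 and -0.39 and were not called.

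**Figure D2:**
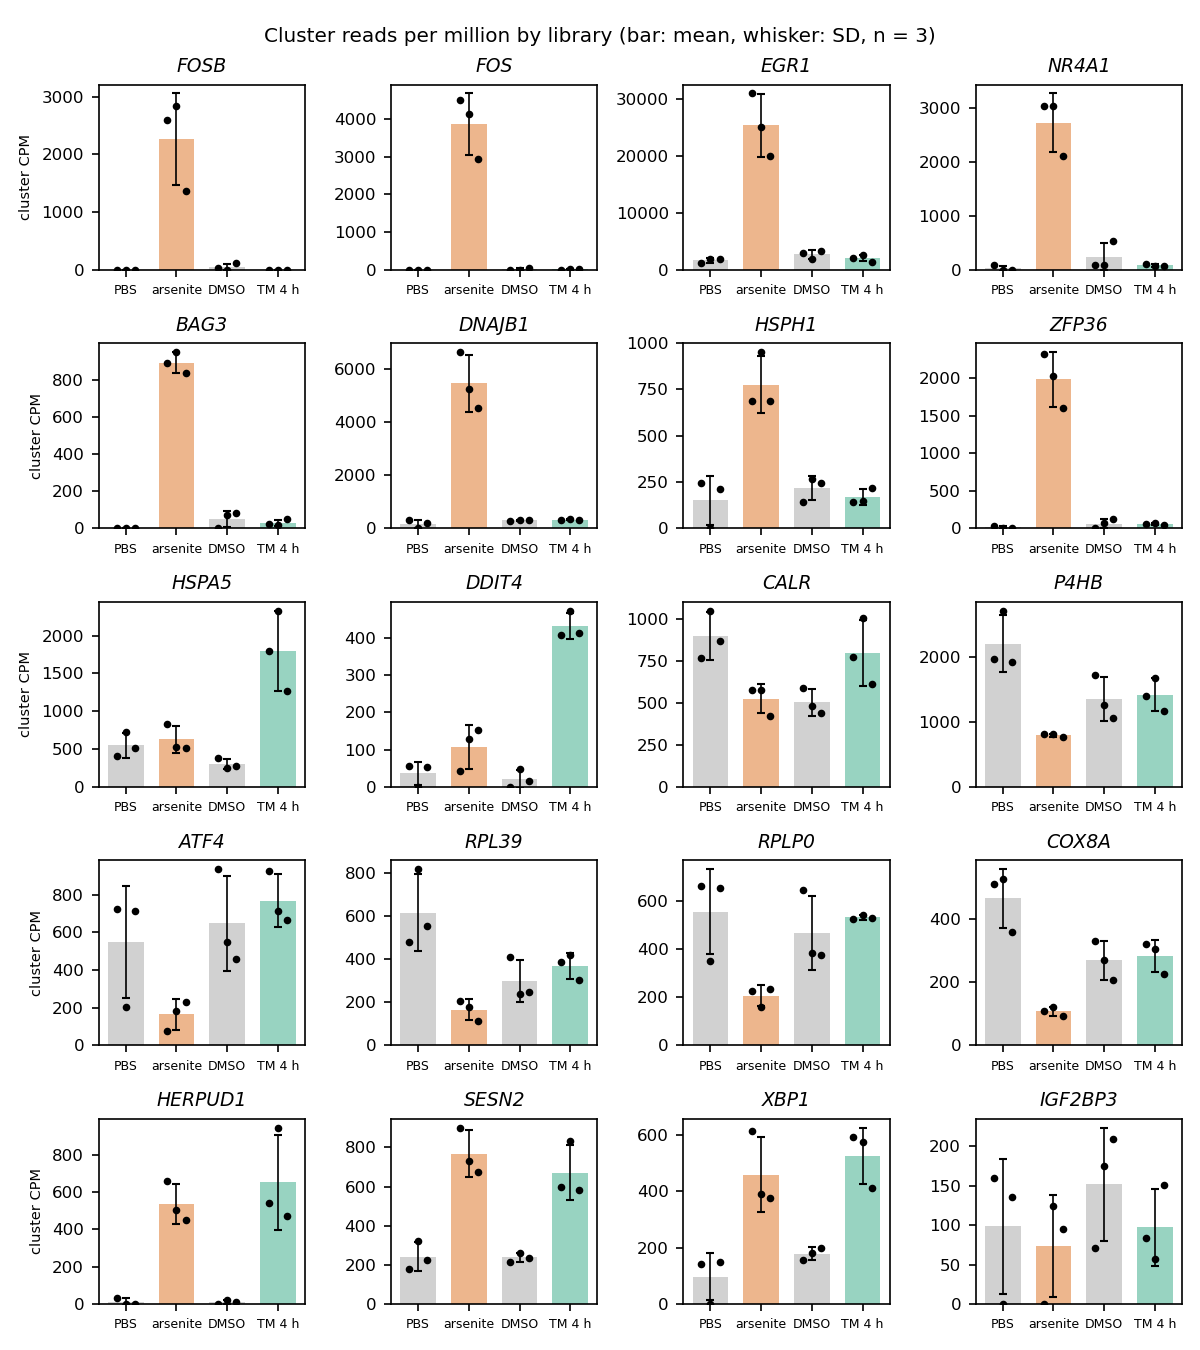
Cluster reads in CPM for 20 genes in the 12 libraries, with points for single libraries, bars for the mean and whiskers for the SD of 3 libraries, each panel on its own linear scale from 0. The upper 2 rows show genes with high arsenite libraries, such as FOS at 2933 to 4505 CPM, the middle rows genes with a more negative difference and DDIT4, and the bottom row genes that stood high with both stresses together with IGF2BP3.

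ER chaperones and disulfide isomerases included genes that rose under tunicamycin and genes that fell under arsenite. Of 24 members 18 had clusters and 10 were tested, and 4 were called, all more negative, with a median difference of -1.10 over the list. HSPA5, the ER lumenal HSP70 known as BiP and a main target of the unfolded protein response, differed because it rose under tunicamycin. It stood at 377, 249 and 281 CPM with DMSO and at 1797, 2334 and 1265 CPM with TM 4 h, with no overlap. With PBS it stood at 407, 731 and 512 CPM and with arsenite at 832, 533 and 513 CPM, which overlap. The tunicamycin change was 2.61 (SE 0.28), the arsenite change 0.26 (SE 0.29), and the difference -2.35 (SE 0.40, adjusted p = 0.0025). P4HB, a protein disulfide isomerase, differed because it fell under arsenite. It stood at 1970, 2719 and 1932 CPM with PBS and 811.5, 810.3 and 769 CPM with arsenite, while the DMSO and TM 4 h means were 1350 ± 342 and 1417 ± 253 CPM (SD, n = 3). PPIB, an ER cyclophilin, also fell under arsenite (-1.56, SE 0.37), and its call was lost under 17 of 23 alternatives. CALR, the lectin chaperone calreticulin, fell by 0.75 on the log2 scale under arsenite (SE 0.23) and changed by 0.68 under tunicamycin (SE 0.22, adjusted p = 0.40). HSP90B1 stood against this direction with a difference of 1.73 that was not called (adjusted p = 0.16).

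For ER-associated degradation, translocation and XBP1 targets no difference was called. Of 31 members 28 had clusters, 12 were tested, and the median difference was -0.03. HERPUD1, a membrane protein of the degradation complex, was high with both stresses, and like SESN2 and XBP1 it was chosen after its values were seen. It stood at 33.0, 0 and 0 CPM with PBS and 660, 503 and 453 CPM with arsenite, and at 0, 20.2 and 8.32 CPM with DMSO and 543, 946 and 474 CPM with TM 4 h. Both changes passed the test in edgeR, at 5.09 (SE 0.69, adjusted p = 0.000155) for arsenite and 5.75 (SE 0.56, adjusted p = 6.8e-05) for tunicamycin, and their difference was -0.66 (SE 1.09, adjusted p = 0.76). SESN2, a stress-induced inhibitor of mTORC1, likewise rose with both, by 1.80 (SE 0.26) and 1.48 (SE 0.23), with a difference of 0.31 (SE 0.34). XBP1, whose mRNA is spliced by IRE1, rose by 1.86 (SE 0.40, adjusted p = 0.0043) under arsenite and had 1.52 (SE 0.34, adjusted p = 0.069) under tunicamycin. The SEs leave room for differences between the stresses that these libraries could not show. The strongest windows of these 3 genes are printed as members of the contrast without a called difference.
HERPUD1 (chr16:56940123-56940152, plus strand): tcgagattggttggattggacctattcagc
SESN2 (chr1:28281346-28281375, plus strand): gaggctgttgcccgaatcctagttcagttt
XBP1 (chr22:28795417-28795446, minus strand): tcagcccctcagagaatgatcaccctgaat

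In the integrated stress response, the kinase PERK or its relatives phosphorylate eIF2α and the factor ATF4 is then translated. Of 21 genes of the ATF4 and CHOP list 18 had clusters and 10 were tested, and 2 were called, both more negative under arsenite. Without PBS replicate 2 there were 4, with STC2 and DDIT4 added. ATF4 itself fell under arsenite, from 726, 205 and 713 CPM with PBS to 75.7, 184 and 232 CPM, where the lowest control library, PBS replicate 2, lay within the arsenite range. With DMSO it stood at 936, 550 and 459 CPM and with TM 4 h at 928, 715 and 664 CPM. The difference was -2.06 (SE 0.53, adjusted p = 0.026), and the call was lost under 9 of 23 alternatives. TRIB3, a pseudokinase and a target of ATF4 and CHOP, differed in the other way. It rose under tunicamycin, from 377, 301 and 228 CPM to 948, 1654 and 775 CPM, and stood at a mean of 536 ± 190 CPM with PBS and 635 ± 41.4 CPM with arsenite (SD, n = 3; difference -1.59, SE 0.43, adjusted p = 0.035). This call was lost under 11 of 23 alternatives. DDIT4, an inhibitor of mTORC1, stood at 0, 48.8 and 15.5 CPM with DMSO and 410, 474 and 414 CPM with TM 4 h, and its difference of -2.82 (SE 1.02) had an adjusted p of 0.10, or 0.042 without PBS replicate 2. DDIT3, which encodes CHOP, was below the minimum and was not tested. It was listed with 37, 112 and 177 reads in the TM 4 h libraries, with 7 reads in 1 arsenite library, and with none in any control. CHAC1, a glutathione-degrading target of this pathway, was untested too, with 10, 93 and 164 reads with TM 4 h and 12, 20 and 35 reads with arsenite.

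Amino acid genes, many of them ATF4 targets, were mixed. Of 22 members 17 had clusters and 9 were tested, of which 5 lay below 0 and 4 above, and 2 were called, both more negative, with a list median of -0.52. SLC7A1, a cationic amino acid transporter, averaged 1234 ± 121 CPM with PBS, 796 ± 148 CPM with arsenite, 1046 ± 99.5 CPM with DMSO and 1467 ± 194 CPM with TM 4 h (SD, n = 3). Its difference was -1.10 (SE 0.26, adjusted p = 0.016). MTHFD2, a mitochondrial enzyme of folate metabolism, had a difference of -0.92 (SE 0.26), and its call was lost under 12 of 23 alternatives. Among 5 tested tRNA synthetases of 20, IARS1 was the called member and was more positive (1.96, SE 0.49), with the call lost under 8 of 22 alternatives.

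The called ribosomal protein transcripts and other mRNAs of the TOP class were all more negative under arsenite. These mRNAs share a 5′ terminal oligopyrimidine (TOP) tract, through which mTORC1 controls their translation. Of 47 genes of large subunit proteins 44 had clusters and 22 were tested, and 5 were called, all more negative. Of 32 genes of small subunit proteins 28 had clusters and 13 were tested, and 2 were called, both more negative. Without PBS replicate 2 the counts were 11 and 8. The medians were -1.14 and -1.27, and both stayed below 0 with the other scalings. RPL39, a small protein at the exit tunnel, stood at 479, 819 and 554 CPM with PBS, 206, 176 and 111 CPM with arsenite, 410, 239 and 249 CPM with DMSO and 385, 420 and 302 CPM with TM 4 h. Arsenite libraries lay below all others, and DMSO and TM 4 h overlapped (difference -2.23, SE 0.44, adjusted p = 0.0075). RPLP0, the stalk protein, fell under arsenite from a mean of 555 ± 177 to 206 ± 42.3 CPM, with 467 ± 153 and 532 ± 9.91 CPM in the tunicamycin arm (SD, n = 3). RPL10 combined an arsenite change of -0.63 (SE 0.26, adjusted p = 0.084) with a tunicamycin change of 0.92 (SE 0.24, adjusted p = 0.19), so that the difference of -1.55 was called (adjusted p = 0.013) although neither arm was. RPS12 and RPSA, of the small subunit, had differences of -1.99 and -1.49, and these calls were lost under 14 of 21 and 10 of 23 alternatives. Ribosomal protein genes have many near-identical copies in the genome, and reads shared with them may be counted elsewhere.

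Of 18 other TOP mRNAs 17 had clusters and 15 were tested, and 4 were called, all more negative, with a median of -0.89. EEF1A1, the elongation factor that delivers aminoacyl-tRNA, stood at 567, 526 and 607 CPM with PBS, 447, 285 and 349 CPM with arsenite, 559, 515 and 452 CPM with DMSO and 839, 736 and 718 CPM with TM 4 h. It was lower with arsenite in every library and higher with tunicamycin in every library than in the matching controls (difference -1.28, SE 0.28, adjusted p = 0.013). RACK1, a ribosome-bound scaffold, rose under tunicamycin (0.95, SE 0.19, adjusted p = 0.027) and changed by -0.02 (SE 0.20) under arsenite. Its TM 4 h mean of 907 CPM lay near its PBS mean of 865 CPM, while its DMSO mean was 474 CPM. The call of its difference was lost under 13 of 23 alternatives. EEF1G and EIF3F had differences of -1.47 and -1.52, lost under 9 and 16 of 23 alternatives. ZFAS1, a spliced noncoding RNA that hosts small nucleolar RNAs, fell from 435, 585 and 477 to 158, 165 and 185 CPM with arsenite. With DMSO it stood at 299, 209 and 233 CPM and with TM 4 h at 474, 472 and 390 CPM, so neither pair of groups overlapped (difference -2.37, SE 0.34, adjusted p = 0.00091).

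Other more negative genes belonged to different pathways. LSM3, a subunit of the LSM ring on U6 RNA and decapping complexes, had the most negative difference, -2.84 (SE 0.58). It stood at 259, 497 and 312 CPM with PBS and 48.1, 22.5 and 30.8 CPM with arsenite. MRFAP1, a chromatin-associated partner of MORF4L1, and COX8A, a subunit of cytochrome c oxidase, had differences of -2.27 (SE 0.36) and -2.19 (SE 0.43). RAB25, an epithelial GTPase of recycling endosomes, fell from a mean of 327.5 ± 20.3 to 71.1 ± 23.1 CPM with arsenite (SD, n = 3), and its difference of -1.96 was lost under 12 of 22 alternatives. COX8A was the called member among 7 tested genes, from 50 nuclear genes of oxidative phosphorylation of which 39 had clusters, with a list median of -0.94. OOEP, whose reads may belong to an RPL39 copy, had a difference of -2.07 (SE 0.42).

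**Figure D3:**
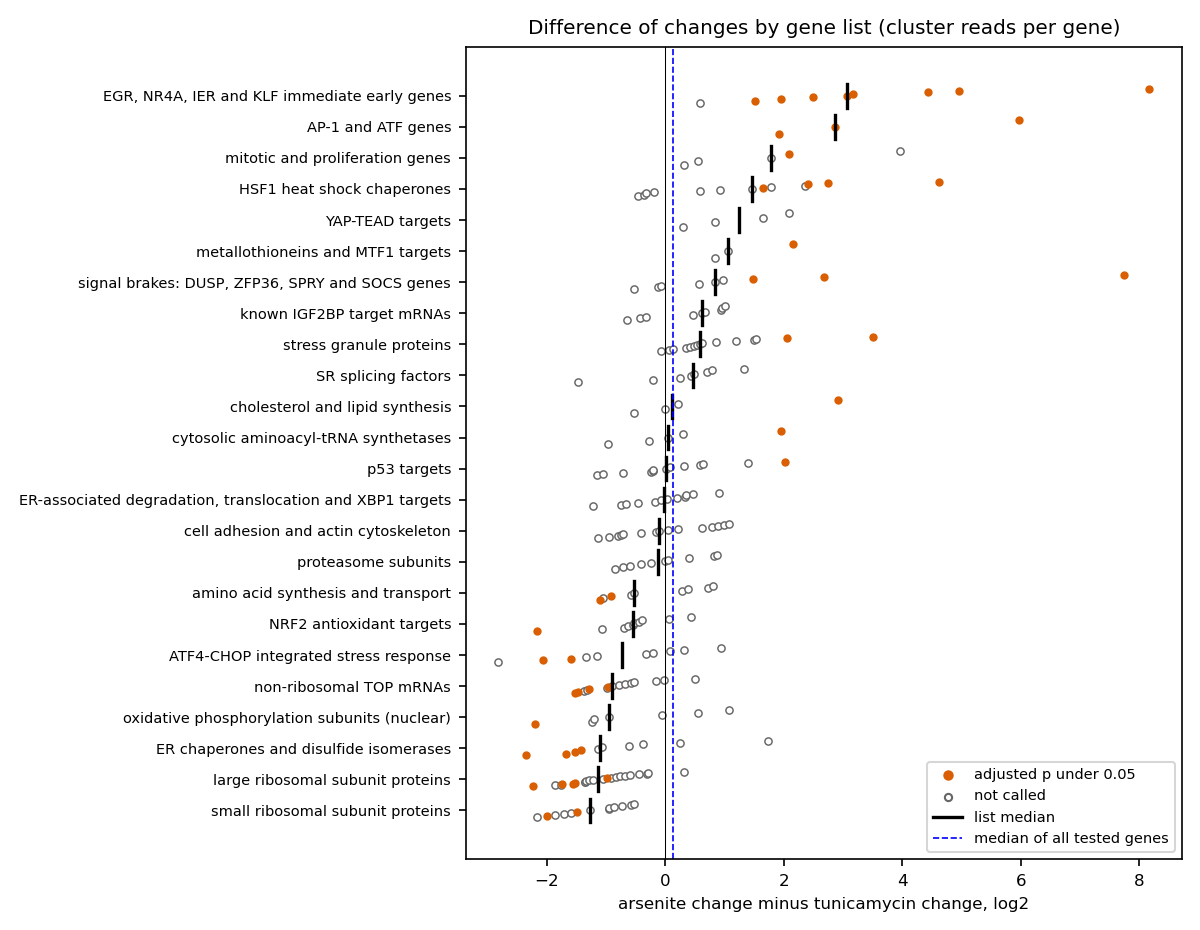
Each point is a tested gene of a list, placed by its arsenite change minus tunicamycin change (log2, cluster reads), with filled points for called genes and short vertical bars for list medians. Genes with a whole group of libraries at 0 are left out, lists with fewer than 3 remaining genes are not drawn, and the dashed line marks the median of 0.14 over all tested genes. Immediate early lists lie to the right, with medians of 3.07 and 2.86, and ribosomal protein lists to the left, at -1.14 and -1.27.

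Some lists held 1 or 2 called genes or none. Of 23 stress granule proteins, all with clusters, 15 were tested and 2 were more positive under arsenite. UBAP2L, which promotes granule assembly, stood at 402, 0 and 436 CPM with PBS, 1891, 1849 and 1503 CPM with arsenite and a mean of 400.5 ± 44.3 and 492 ± 4.67 CPM in the tunicamycin arm (SD, n = 3). TIAL1 had a difference of 3.51 (SE 1.02), whose call was lost under 13 of 20 alternatives, and G3BP1, the core granule protein, had 0.13 (adjusted p = 0.88). PLK2, a kinase that p53 and serum both induce, was called among 13 tested p53 targets out of 22 (2.02, SE 0.34), while MDM2 and CDKN1A had -0.21 and -1.15 and were not called. MKI67, a proliferation marker, was called among 5 tested mitotic genes out of 29 (2.09, SE 0.47). Its PBS libraries, at 358, 0 and 389 CPM, lay below the DMSO libraries at 1125, 961 and 812 CPM. The latter lay near the arsenite libraries at 1348, 1654 and 1950 CPM, so the baselines of the 2 arms differ in this gene. Baselines also differed in many of the more negative genes named above. In RACK1, RPL10 and ZFAS1 the PBS means were 865, 742 and 499 CPM and the DMSO means 474, 360 and 247 CPM, without overlap of libraries. PBS libraries likewise lay above all DMSO libraries in HSPA5, P4HB, CALR, MRFAP1, RPL39, COX8A, PRDX1, OOEP, RAB25, RPSA, EEF1G and EIF3F. PBS and DMSO libraries overlapped in LSM3, RPS12, PPIB, ATF4, TRIB3, SLC7A1, MTHFD2, RPLP0 and EEF1A1. Whether unequal controls shaped these differences was not tested. PRR14L and ZBTB38 were called because no PBS library listed a cluster, while their arsenite means of 245.5 ± 61.4 and 166.5 ± 55.3 CPM lay near the DMSO means of 147 ± 83.5 and 112 ± 62.8 CPM (SD, n = 3).

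No gene was called among 10 tested proteasome subunits out of 32, 8 SR splicing factors out of 14, 4 YAP-TEAD targets out of 16, 9 known IGF2BP target mRNAs out of 22, or 15 genes of adhesion and actin out of 26. Their medians were -0.12, 0.46, 1.24, 0.63 and -0.10. With another scaling the sign of the median turned for the proteasome and adhesion lists, and likewise for the XBP1, p53 and tRNA synthetase lists, all of which lay near 0. Without PBS replicate 2, SRSF3 and HMGA2 were called, with adjusted p of 0.033 and 0.037. ACTB, the first zipcode target of this protein family, had a difference of 0.63 (adjusted p = 0.31). Of the IGF2BP genes, IGF2BP3 alone was tested. Its own transcript had a difference of 0.08 (SE 1.23, adjusted p = 0.98), with 1 PBS and 1 arsenite library at 0 and large spread, so a moderate change was not detectable at this depth. Control IgG libraries were shallow, with 33 to 180 clusters and 5981 to 17503 gene counts each, so absent reads say little about background. They had no cluster reads in most of the genes named here. Among the genes chosen by rule only P4HB, SLC7A1 and MTHFD2 had any (5, 5 and 6 reads), and among the 10 genes chosen later EGR1 had 19.

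The sequences under the called genes were compared as a description. In the strongest region of each gene, 31.5% of the windows of 111 more positive genes and 36.0% of those of 50 more negative genes held CAT on the sense strand, against 39.0% of 1914 windows of tested genes. Over all regions these shares were 42.9%, 43.2% and 45.8%. Windows of the strongest regions had 22.1% T in the more positive and 21.3% in the more negative genes, and 26.3% over all tested genes. The strongest region lay a median of 2618 bases from the annotated 3′ end of the gene in the more positive set and 1561 bases in the more negative set, against 1738 bases over all, measured on the genome with introns included. More negative genes were short, with a median span of 9100 bases and 6 cluster regions, against 36373 bases and 17 regions in the more positive genes and 33638 bases and 13 regions over all tested genes.

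Crosslink conversion shares, which neither test on reads takes as input, were compared between arms. Clusters were listed only with at least 2 conversion locations, so cluster reads are not independent of conversion. In PBS libraries 7.97, 8.13 and 7.95% of the T positions covered in clusters were read as converted, and in arsenite libraries 8.81, 8.66 and 8.63%, without overlap. DMSO libraries had 7.99, 7.72 and 7.79% and TM 4 h libraries 8.67, 8.38 and 7.66%, where TM 4 h replicate 3, the lowest of the 12 libraries, lay below its control. The arsenite change was 0.68 and the tunicamycin change 0.40 percentage points. The difference of conversion share changes, 0.28 points, was within the spread of the libraries (exact permutation test within arms, two-sided, p = 0.525, the smallest possible being 0.005), and it was -0.00586 points without TM 4 h replicate 3. The number of clusters per 1000 gene counts differed by 0.18 on the log2 scale (exact permutation p = 0.47, adjusted over both measures p = 0.525), and by 0.02 without PBS replicate 2. In clusters of the AP-1, EGR, NR4A, IER and KLF genes the conversion share was between 9.77 and 9.82% in the arsenite libraries, above the range of 8.02 to 9.47% in PBS. In the tunicamycin arm the ranges for these genes overlapped, at 8.44 to 9.15% with DMSO and 8.05 to 9.71% with TM 4 h. In ribosomal protein genes the share was between 10.7 and 10.8% with arsenite and between 9.86 and 10.2% with PBS. Tested genes without a called difference moved the same way, from 7.88 to 8.32% with PBS to 8.49 to 8.69% with arsenite, so the shift was not limited to these sets.

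**Figure D4:**
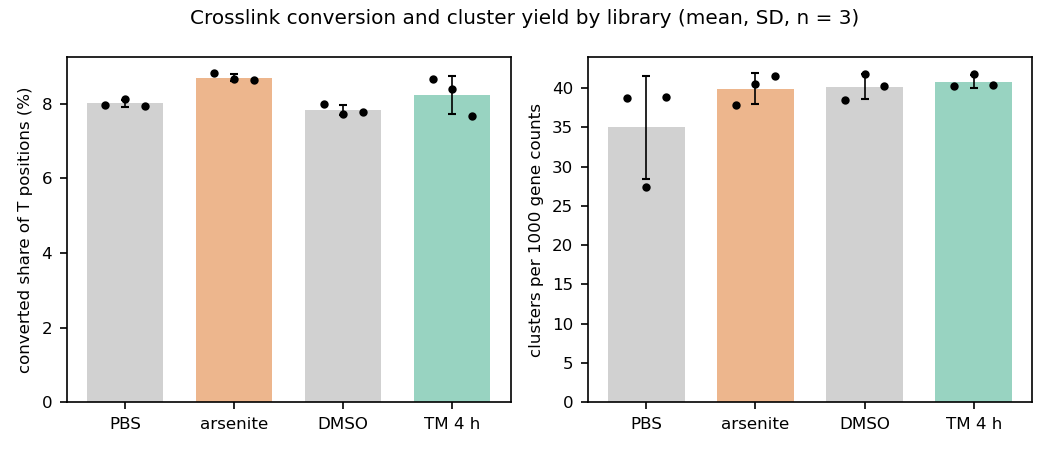
Converted share of T positions in clusters (left, percent) and clusters per 1000 gene counts (right) for the 12 libraries, with points for libraries, bars for means and whiskers for the SD of 3 libraries. Arsenite libraries lie above PBS in conversion, at 8.63 to 8.81%, TM 4 h replicate 3 lies at 7.66%, and PBS replicate 2 has the fewest clusters per 1000 counts, 27.4.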

How the data were processed

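PAR-CLIP libraries of IGF2BP3 were compared in 4 groups of 3. Per the labels, reads were handled with tools that include Trimmomatic 0.30, Bowtie 0.12.7, UMI-tools 1.1.1 and featureCounts 2.0.1 on hg38 (submitters' processing notes, GRCh38.p13 also named). The authors deposited raw counts per gene in 1 table and counts of reads, conversion and non-conversion events per cluster in a list per library, and per the file headers clusters were called separately in each. The cluster caller is not given in the sources used here, and which RNase concentration each library received is not stated. For the control IgG of PBS and arsenite, list names and attached samples are swapped, and the attachment was followed.

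For both kinds of counts the test was that of edgeR 4.0.16 under R 4.3.3 (TMM, quasi-likelihood test, two-sided, Benjamini-Hochberg, threshold 0.05) in 1 fit of the 12 libraries, and each SE is the log2 value divided by the square root of F. Gene counts were filtered with filterByExpr. The plan was to name genes of the count table by symbol, but the reference table has 0 Ensembl entries filled, so cluster reads were summed per RefSeq gene by position of the cluster mode. Matching identifiers to symbols through similar read profiles was tried and dropped because it gave wrong pairs. Strand came from the RefSeq promoter table or, for 1006 genes, from the dominant strand of the reads (at least 0.9), a rule that gave the annotated strand in 95.6% of 4793 genes. All 539 clusters inside promoter windows matched their sequence. Reads assigned made up 81.4 to 87.1% of cluster reads. The cluster-read table and its filter, a mean of at least 50 reads, were chosen after fits with filterByExpr, without PBS replicate 2 and with genes clustered in all libraries had been seen. The comparison, the gene lists and the rule for named genes were chosen with earlier results of these data known.

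Named genes were, per direction, the 10 largest called differences with at least 50 reads on average and all library pairs separated, up to 4 called members of each of the 25 lists, up to 4 per direction called in opposite directions in both arms (there were none in the cluster reads), and the IGF2BP genes. Other list members given with a value, and the genes so marked in the text, were picked after their values were seen. The test was checked on simulated data in which 200 genes changed 2-fold in the arsenite libraries. It recovered 44.5% of them in gene counts and 12% in cluster reads, with 3 and 0 false calls. Conversion shares were tested by exact permutation. Alternatives covered scaling, DESeq2 1.42.0, filters, library sets, the replicate block and leaving out each library. All 12 same-group library pairs differed beyond sampling noise by a chi-square test. Results for some genes are not reported here.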

Additional observations from a re-analysis of the deposited data

How the results depend on the processing

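The count of 1427 genes with a different change in the gene table stayed within 1.5 times under 21 of 22 alternatives (1034 to 1448), and leaving out each library gave 1052 to 1377. DESeq2's Wald test gave 854 (386 more positive, 468 more negative), and without a filter on low counts 486 genes were more negative and 57.5% of the calls more positive. The counts from cluster reads, 161 in all with 111 more positive and 50 more negative, were less stable. DESeq2's Wald test gave 421 (291 and 130), only the S142 libraries in the tunicamycin arm 65 (48 and 17), and the replicate block 70 (46 and 24). Library totals gave 118 more negative genes, no filter on low counts 29, filterByExpr 22, and genes with a cluster in each library 91. The last 2 settings were chosen after seeing the data. Leaving out each library gave 72 (without arsenite replicate 2) to 295 (without PBS replicate 2) calls, with 53 to 182 more positive and 19 to 113 more negative, and 258 without DMSO replicate 1. The count was also below 161 by over 1.5 times without arsenite replicate 3 (104), DMSO replicate 2 (98) or 3 (97), and TM 4 h replicate 1 (103) or 2 (89). Deviations of libraries with the same replicate number had correlations from -0.10 to 0.02. Such values gave no sign of pairing but do not show that the libraries were unpaired. The replicate block gave 1247 calls in the gene table, against 70 in the cluster reads. No called gene named by rule reversed under an alternative that could be fitted. The difference of IGF2BP3, which was not called, changed sign, with values from -0.39 to 0.55. The difference of conversion share changes reversed without TM 4 h replicate 3, at -0.00586 points, and ranged up to 0.495 points when single libraries were left out. The causes were not tested. Low depth limits the cluster reads in PBS replicate 2, which holds 42699 reads.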
